A study of Rattus norvegicus with 12 samples.

Results

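Cultured heart muscle cells from newborn rats were profiled on arrays in 2 experiments with the same protocol, and this account sets the first experiment against the second over the 4 conditions that both contained. The rule paired arrays by treatment: 8 of the 12 arrays entered, 4 of the first experiment and 4 of the second, matched for vehicle (ethanol), CVZ (cortivazol, a synthetic glucocorticoid), COR (corticosterone, the main glucocorticoid of rats) and ALD (aldosterone, a mineralocorticoid). The other 4 arrays belonged to the second experiment and carried RU486, a glucocorticoid receptor antagonist, given at 10 µM before the vehicle or ligand. All cells came from ventricles of Wistar pups aged 1 day, were separated from fibroblasts by how fast cells attach to a dish, were seeded on gelatin and kept in serum, then in OPTI-MEM for 24 h, and were exposed for 3 h. Ligand doses are not given in the sources used here.

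The labels do not say whether the experiments used separate litters or cultures, nor whether the 4 arrays of an experiment shared a dish preparation. An experiment is therefore 1 unit, culture and array processing cannot be told apart from it, and the p-values below measure only the spread between these arrays. Beside each gene the values are array signals in units of the array's own median, in the order vehicle, CVZ, COR and ALD. Differences are log2 values, first minus second, fitted over the 4 pairs and given ± the standard error. A probe set was called at an adjusted p below 0.05 in limma, and genes are represented by the probe set of highest mean.

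A neonatal ventricular culture is a mixture. Cardiomyocytes beat, make sarcomere proteins and largely stop dividing soon after birth, while fibroblasts divide, secrete collagens and other matrix, and attach to plastic faster, which is why a preplating step is used to reduce them. Endothelial cells, smooth muscle cells and pericytes, macrophages, epicardial cells and blood cells of the ventricle can also be carried along. In bulk RNA, fewer cells of a type and less RNA per cell cannot be told apart.

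Of 18625 probe sets tested, 5385 (28.9%) were called higher and 1946 (10.4%) lower in the first experiment. Counted with 1 probe set a gene, 3397 of 10118 genes (33.6%) were higher and 1131 (11.2%) lower. Counts of called list members below are to be set beside these shares. All 4 arrays of the first experiment lay above all 4 of the second for 4532 probe sets (24.3%) and below them for 1382 (7.42%). Changes of at least 2-fold were found in 666 probe sets called higher and in 169 called lower. These counts moved with the settings: they were 264 and 11 with a pseudocount of 1, and 387 and 409 when arrays were divided by a trimmed mean. The experiment accounted for 42.3% of the sum of squares of the 8 arrays, the treatment for 36.5% and the rest for 21.2%. These shares rest on 1 degree of freedom for experiment, 3 for treatment and 3 for the rest. They were not divided by them, and spread between arrays enters each share, so their sizes are not compared directly. The differences of 2 treatments, which share no array, correlated at 0.514 to 0.569 across probe sets, which are not independent of each other.

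Higher and lower calls depended on how the arrays were scaled. The mean deposited signal was 6.14 to 6.36 in the first experiment and 5.08 to 5.51 in the second, although every array had a median of 1. The median difference was −0.05 in the fifth of probe sets with the lowest signal and 0.25 in the fifth with the highest, where 2157 of 3725 probe sets were called higher and 323 lower. Of all calls 73.5% were higher with the deposited scaling, against 49.0% after quantile normalization, 41.8% after division by a trimmed mean and 50.1% after cyclic loess. The median over all tested probe sets was 0.11, −0.02, −0.09 and −0.02 under these 4 scalings in that order. Calls past 2-fold with the deposited scaling were made in the same direction, at any size, under all 4 for 649 of the 666 higher and 162 of the 169 lower probe sets. Differences below about the size of this shift are therefore read against the median of 0.13 that all genes showed with 1 probe set each.

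**Figure D1:**
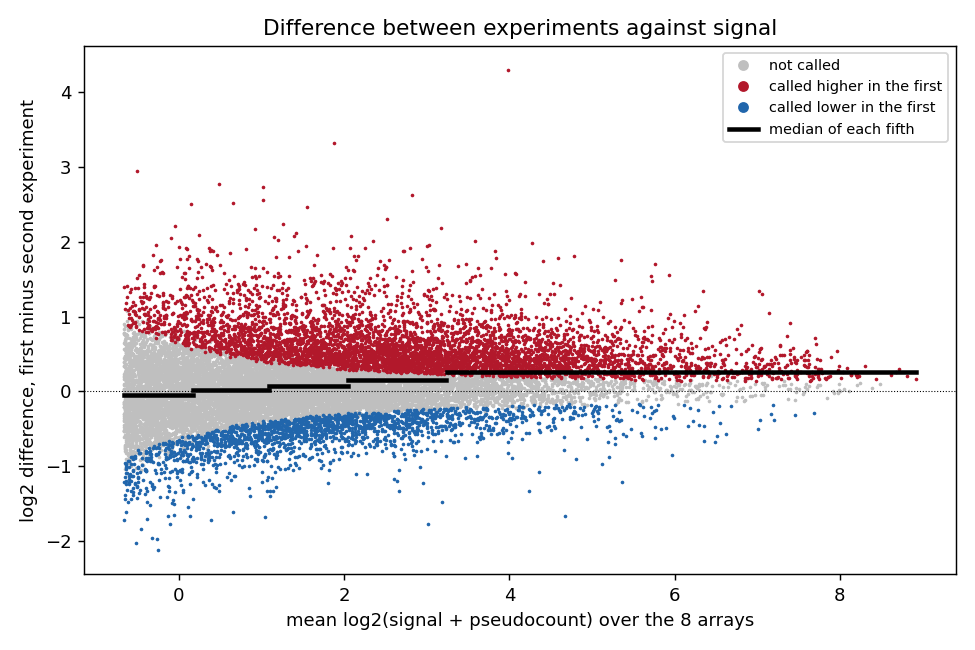
Fitted log2 difference of each of the 18625 tested probe sets (vertical axis, first minus second experiment) against its mean log2 signal plus pseudocount over the 8 arrays (horizontal axis), with calls in colour and the median of each of 5 equal groups by signal as a black bar. The bars climb with signal, to 0.25 in the highest group. Reg3b, at a difference of 4.30, lies far above the bar of that group.

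**Figure D2:**
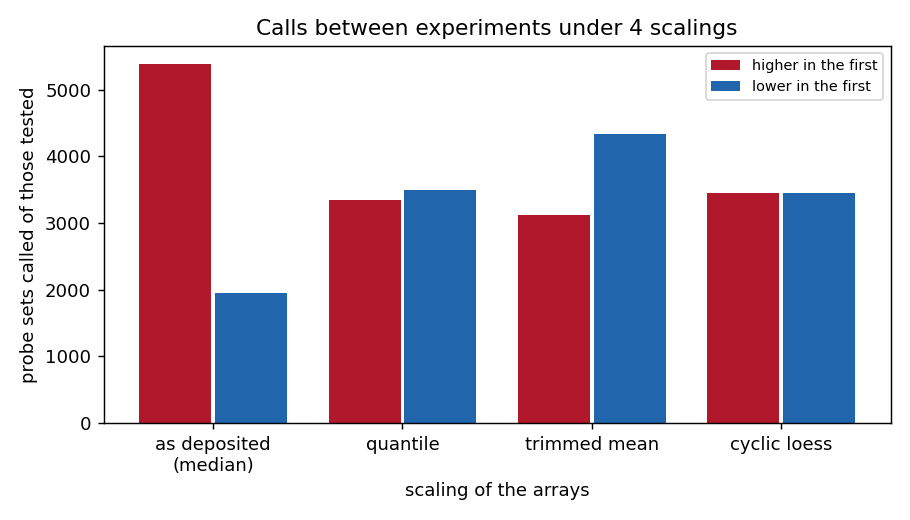
Number of probe sets called higher (left bar of each pair) and lower (right bar) in the first experiment under the deposited median scaling and 3 other scalings. The deposited scaling gives 5385 higher and 1946 lower calls, and the trimmed mean gives 3114 higher and 4340 lower.

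Control probe sets differed too. The 5S ribosomal RNA control read 1.61 to 2.05 in the first experiment and 3.83 to 5.12 in the second, and the B1 repeat control read 0.969 to 1.23 and 1.45 to 1.99. The ratio of the 3′ to the 5′ probe set was 1.68 to 1.92 in the first experiment and 2.08 to 2.33 in the second for hexokinase, 2.16 to 2.48 and 1.96 to 2.26 for β-actin, and 1.04 to 1.08 and 1.07 to 1.12 for GAPDH. With 4 pairs an exact sign-flip permutation test, two-sided, cannot give a p below 0.125, and the 5S, B1 and hexokinase measures reached that smallest value. So did the mean deposited signal, the 3′ β-actin signal and the array median before division, as recovered from the file. The 3′ β-actin signal was 110 to 119 in the first experiment and 79.8 to 89.4 in the second. The recovered median was 21.1 to 25.5 and 22.4 to 33.7. Spiked-in cre and bioD RNA overlapped between the experiments. The part of these control and array measures in the results below was not tested.

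Genes of fibroblasts were higher in the first experiment. Of 15 fibroblast markers, 14 were measured above the filter on low signal, and 13 of them were called higher, 0 lower, with a median difference of 1.35. The summed signal of these markers was 415 to 508 in the first experiment and 212 to 224 in the second. Postn (periostin, a matrix protein of activated fibroblasts) read 78.4, 80.2, 76.1 and 65.6 in the first experiment, against 21.0, 25.4, 21.8 and 20.9 in the second. That is a difference of 1.75 ± 0.06 (adjusted p = 1.9e-11), with no overlap between the experiments and pair differences of 1.65 to 1.90. Dcn (decorin, a proteoglycan of the interstitium) read 20.1, 23.5, 34.1 and 20.9, against 7.78, 7.54, 7.93 and 7.31. Its COR array was the highest of the first experiment, and the 4 arrays of the second lay close together. Pdgfra, the receptor for platelet-derived growth factor that marks fibroblasts, differed by 1.62 ± 0.15, the basement membrane protein Fbln2 by 1.77 ± 0.09, the collagen gene Col6a1 by 1.59 ± 0.08 and dermatopontin (Dpt) by 1.65 ± 0.10. Fap, the serine protease of activated fibroblasts, was the member not called, at 0.22 with an interval from −0.43 to 0.87.

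Secreted matrix and the enzymes that process it moved the same way: 20 of 23 measured genes of the extracellular matrix list were called higher and 0 lower, with a median of 0.81. Under the 3 other scalings 16 or 17 were higher and 1 or 2 lower. Fn1 (fibronectin) read 81.1, 76.4, 80.7 and 62.8 in the first experiment, against 35.2, 30.3, 28.9 and 30.9 in the second. The lowest array of the first, ALD, was still well above the highest of the second, vehicle. Lox (lysyl oxidase, which cross-links collagen) differed by 1.92 ± 0.11 and the membrane protease Mmp14 by 1.45 ± 0.09 (0.77 at its other probe set). The proteoglycan Vcan differed by 1.44 ± 0.10, with 0.70 to 1.64 at its 3 other probe sets. The gelatinase Mmp2 differed by 1.31 ± 0.09 and tenascin C (Tnc) by 1.16 ± 0.13. Col4a2, a basement membrane collagen, gave 0.00 ± 0.07 and was called lower under the 3 other scalings. The receptor tyrosine kinase gene Axl, from the list of YAP targets and cytoskeleton, differed by 1.25 ± 0.08, and the actin cross-linker Actn1 by 0.70 ± 0.07 (−0.03 at its other probe set). That list of 15 had 8 higher and 2 lower calls, and its median of 0.21 turned to −0.05 after quantile normalization, with 4 higher and 4 lower.

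**Figure D3:**
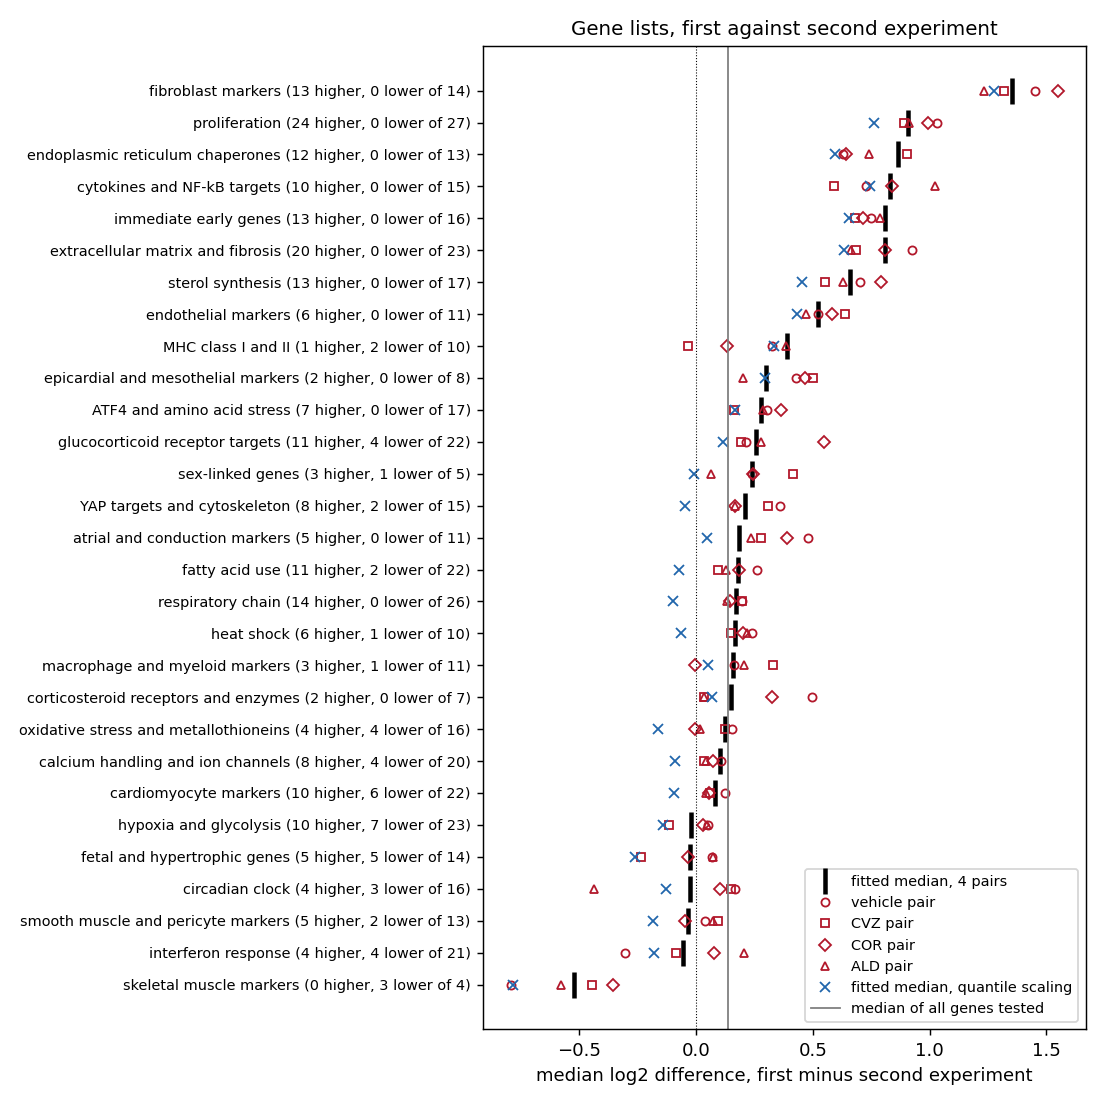
Median log2 difference, first minus second experiment, of each gene list with at least 4 measured members. Black ticks give the fitted median, open symbols the median in each of the 4 treatment pairs, crosses the median after quantile normalization and the grey line the 0.13 of all genes. Fibroblast markers stand highest at 1.35. Skeletal muscle markers, with 4 measured genes of which Ckm is also a cardiomyocyte marker, stand lowest at −0.52.

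Markers of other non-muscle cells differed list by list. Among endothelial markers 6 of 11 measured were higher and 0 lower, with a median of 0.52. Tek (the angiopoietin receptor of endothelium) read 5.71, 6.20, 7.85 and 6.18 in the first experiment, against 2.41, 2.44, 2.24 and 2.18 in the second, a difference of 1.45 ± 0.12 with no overlap. The endothelial sialomucin Emcn differed by 1.42 ± 0.16 and the diaphragm protein Plvap by 1.58 ± 0.28. Kdr, a receptor for vascular endothelial growth factor, differed by 0.35 ± 0.13 and lost its call under each of the 3 other scalings, without the vehicle pair (0.13) and without the COR pair (0.38).

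Smooth muscle and pericyte markers split, with 5 of 13 higher, 2 lower and a median of −0.04 (4 higher and 4 lower after quantile normalization). Tagln (transgelin, an actin-binding protein that fibroblasts in culture also make) read 26.8, 30.6, 24.8 and 27.5 in the first experiment, against 10.1, 13.2, 11.3 and 9.97 in the second. The pericyte regulator Rgs5 differed by 1.13 ± 0.20 and Pdgfrb by 0.83 ± 0.16. Smtn (smoothelin, of contractile smooth muscle) was lower by a difference of −0.48 ± 0.10, and Notch3, a receptor of mural cells, by −0.83 ± 0.24, a call lost without the vehicle pair (−0.57). Smooth muscle actin, Acta2, gave −0.07 ± 0.09 and was called lower under the 3 other scalings.

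Of 11 measured macrophage and myeloid markers, 3 were higher and 1 lower, near the 33.6% and 11.2% of all genes. Cd14 (the lipopolysaccharide co-receptor) read 4.52, 3.76, 4.45 and 4.30 in the first experiment, against 2.02, 1.27, 1.67 and 2.11 in the second, a difference of 1.26 ± 0.14. The mannose receptor Mrc1 differed by 0.86 ± 0.15, while lysozyme (Lyz2) gave 0.16 ± 0.09. The lysosomal protein Cd68 differed by 0.50 ± 0.13, a call lost under at least 1 other scaling. Tyrobp, a signalling adaptor of myeloid cells, was lower at −0.54 ± 0.20, and this call was lost whichever pair was left out, at −0.39 to −0.61. The summed signal of the 11 was 24.8 to 31.6 in the first experiment and 21.6 to 23.7 in the second.

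Among 8 epicardial and mesothelial markers, Upk1b and Lrrn4 were higher, by 1.51 ± 0.19 and 1.43 ± 0.17, and 6 were not called. Hbb (β-globin of red blood cells) read 91.0, 121, 99.0 and 83.8 in the first experiment, against 32.2, 26.9, 30.9 and 30.3 in the second, a difference of 1.70 ± 0.09. Alas2, the erythroid enzyme of haem synthesis, read 1.24 to 2.86 and 0.942 to 1.61 in the first and second experiment, with overlap. Its difference of 0.72 ± 0.24 was 0.44 without the CVZ pair and 0.55 without the COR pair, with the call lost in both. The other 6 erythroid genes on the array were below the filter. All 12 lymphocyte and mast cell markers on the array were below the filter, as were 7 of 9 Schwann and neural markers.

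Of 22 measured cardiomyocyte markers, 10 were called higher and 6 lower. Their median was 0.08, below the 0.13 of all genes and the 0.25 of the fifth of probe sets with the highest signal. The summed signal was 4061 to 4476 in the first experiment and 3991 to 4391 in the second. After quantile normalization 2 were higher and 11 lower, after the trimmed mean 1 and 11, and after cyclic loess 1 and 18, so the direction of this list depended on the scaling. Myh6 (α-myosin heavy chain) read 341, 381, 321 and 319 in the first experiment, against 317, 366, 323 and 312 in the second, and its difference of 0.05 ± 0.04 was not called. It was called lower after the trimmed mean and cyclic loess. Myl2, the ventricular light chain of myosin, gave 0.12 ± 0.05, not called, and was lower after cyclic loess, while its other probe set was called lower at −1.33.

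Some genes of this list were lower under all 4 scalings. Mybpc3 (cardiac myosin-binding protein C) read 88.2, 78.1, 75.5 and 81.0 in the first experiment, against 109, 118, 129 and 124 in the second, a difference of −0.57 ± 0.06 (adjusted p = 2.1e-06) with no overlap. The small heat shock protein of muscle Hspb7 differed by −0.59 ± 0.05 and the muscle creatine kinase Ckm by −0.38 ± 0.06. Ckmt2, the mitochondrial creatine kinase of striated muscle, went the other way by 0.62 ± 0.07. Csrp3 and Tcap, both of the Z-disc, were higher by 0.32 ± 0.05 and 0.35 ± 0.07 but were not called under the 3 other scalings. Of the skeletal muscle list 4 of 17 genes on the array passed the filter. They include Ckm, which is also in the cardiomyocyte list, and Myog, not called at −0.385. Of the rest, Myh1 differed by −0.66 ± 0.05, with 1 of its 4 other probe sets called in the opposite direction. Tnni2 differed by −1.28 ± 0.43, a call lost without the vehicle pair (−0.80) and without the ALD pair (−0.84).

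Of the 14 measured genes of the heart's fetal and stress programme 5 were higher and 5 lower. After quantile normalization 3 were higher and 8 lower, and the median of −0.03 became −0.26. The natriuretic peptide genes were higher: Nppa read 191, 198, 199 and 216 in the first experiment, against 137, 154, 139 and 139 in the second, and Nppb read 50.2, 86.6, 90.2 and 69.3, against 20.7, 54.6, 39.8 and 26.0. Nppa separated the experiments on every array, while the lowest array of the first for Nppb, vehicle, lay below the CVZ array of the second. Ankrd1, a stretch-responsive repressor, was higher by 0.63 ± 0.05 (0.42 at its other probe set). The cardiac transcription factors Gata4 and Nkx2-5 were lower, at −0.67 ± 0.09 (−0.29 at the other probe set of Gata4) and −0.52 ± 0.08. Also lower were skeletal α-actin (Acta1, −0.51 ± 0.06) and the actin-binding protein Xirp1 (−0.52 ± 0.07). Among 11 measured atrial and conduction markers 5 were higher, including Gja5 (connexin 40) by 0.88 ± 0.07 and sarcolipin (Sln) by 0.48 ± 0.09, and 0 were lower; after the 3 other scalings 1 or 2 were lower.

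Of the calcium and ion channel list, Kcnip2 had the largest difference in either direction. The gene, for a β-subunit of the channels that carry the transient outward potassium current, read 15.1, 13.7, 14 and 14.3 in the first experiment, against 38, 47.7, 48.5 and 49.4 in the second. The difference was −1.67 ± 0.08 (adjusted p = 2.3e-10), 3.19-fold lower in the first experiment, and another probe set of the gene gave −1.77. The 4 arrays of the first lay close together and far below those of the second. The T-type calcium channel gene Cacna1h differed by −0.65 ± 0.12, the pacemaker channel Hcn2 by −0.86 ± 0.22 (−0.55 without the ALD pair) and the potassium channel Kcnh2 by −0.46 ± 0.11. Cacna1c, the L-type channel, gave −0.19 ± 0.08, called lower under the 3 other scalings but not here, and its other probe set was called lower here at −0.37. The list of 20 had 8 higher and 4 lower calls, and 1 higher and 7 lower after quantile normalization.

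**Figure D4:**
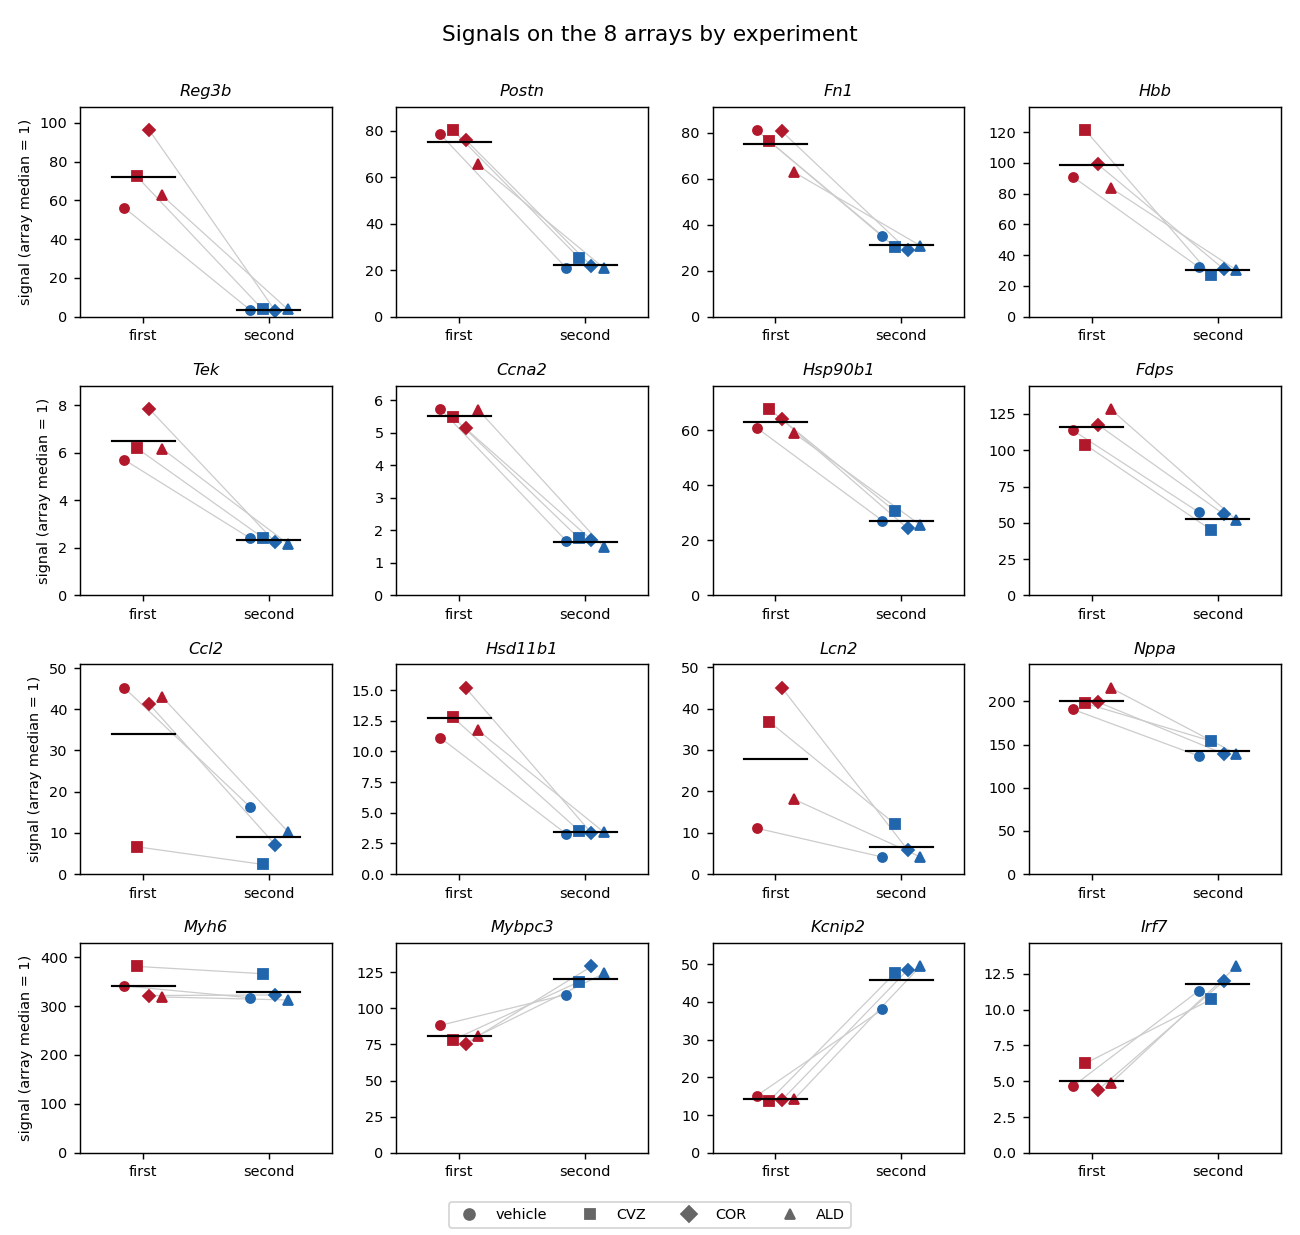
Deposited signal of 16 genes on the 8 arrays, with the first experiment on the left and the second on the right of each panel, symbols for treatment, grey lines joining the 2 arrays of a treatment and black bars at the mean. Reg3b, Postn, Hbb, Ccna2 and Hsp90b1 lie higher in the first experiment on every array, Kcnip2, Mybpc3 and Irf7 lie lower, and Myh6 overlaps.

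Cell cycle genes were higher in the first experiment nearly throughout: 24 of 27 measured proliferation genes were called higher and 0 lower, with a median of 0.91 and medians of 0.89 to 1.03 in the 4 pairs. The summed signal of the list was 153 to 158 in the first experiment and 80.2 to 82.9 in the second. Ccna2 (cyclin A2, of S phase and entry to mitosis) read 5.73, 5.48, 5.14 and 5.71 in the first experiment, against 1.68, 1.76, 1.71 and 1.48 in the second, a difference of 1.70 ± 0.13. Each experiment varied little across treatments. Cyclin B1 (Ccnb1) differed by 1.48 ± 0.12, cyclin B2 (Ccnb2) by 1.21 ± 0.12, the kinase Cdk1 that they activate by 1.32 ± 0.11, the mitotic kinesin Kif20a by 1.40 ± 0.13 and the kinetochore protein Cenpf by 1.30 ± 0.16. The replication helicase subunits Mcm2 and Mcm5 were 2 of the 3 members not called, both at 0.31. Most of the other helicase subunits of the list (Mcm3, Mcm4, Mcm6 and Mcm7) were therefore called higher. Cyclin D1 (Ccnd1), which starts the cycle, was among the 15 largest rises: it read 18.3, 8.53, 13.0 and 12.6, against 3.46, 2.47, 2.23 and 2.06, and its 2 other probe sets gave 1.76 and 1.42. Which cells these transcripts came from was not measured.

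Chaperones of the endoplasmic reticulum, where secreted proteins fold, were called higher for 12 of 13 genes and lower for 0, with a median of 0.87. Hsp90b1 (the chaperone GRP94) read 61.0, 67.8, 64.0 and 58.9 in the first experiment, against 27.2, 30.6, 24.4 and 25.6 in the second, a difference of 1.22 ± 0.06 (adjusted p = 4.1e-10). All arrays of the first experiment lay far above those of the second. The disulfide isomerases Pdia4 and Pdia6 differed by 1.44 ± 0.11 and 0.94 ± 0.06, Sdf2l1 by 1.36 ± 0.10 and the secreted factor Manf by 0.88 ± 0.07. Creld2, also of this compartment, read 10.7, 12.1, 12.7 and 13.9 in the first experiment, against 8.40, 4.82, 4.64 and 5.72 in the second (1.09 ± 0.14), with the vehicle pair closest together. Hyou1, a chaperone of the same compartment, gave 0.17 ± 0.11. After quantile normalization 10 of the 13 were still called higher, with a median of 0.59.

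Many genes of this group are textbook targets of the unfolded protein response, whose factors bind the motif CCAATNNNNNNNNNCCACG. The motif was searched on both strands in the 250 bases before the gene start, in the RefSeq promoter table of build GRCr8. It was found for 5 of the 11 list members in that table (Calr, Creld2, Hsp90b1, Hspa5 and Xbp1) and in 22 of 33469 promoters in all (0.0657%). The list was made of genes known for this response, so the count is a description of the list, and a match is not a measured site. The upstream sequences of a pair of the genes with per-array values are shown, 5′ to 3′ on the gene's strand, with motif matches in capitals; Hsp90b1 lies on the minus strand at chr7:23012294-23012543 and Creld2 on the plus strand at chr7:121789134-121789383. Capitals beginning with CGTGG are matches on the opposite strand.
Hsp90b1: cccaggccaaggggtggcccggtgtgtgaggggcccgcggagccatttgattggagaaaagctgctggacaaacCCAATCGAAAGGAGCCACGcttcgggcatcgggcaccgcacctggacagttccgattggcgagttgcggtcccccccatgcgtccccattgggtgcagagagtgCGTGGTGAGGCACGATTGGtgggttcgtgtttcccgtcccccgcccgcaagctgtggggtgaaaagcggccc
Creld2: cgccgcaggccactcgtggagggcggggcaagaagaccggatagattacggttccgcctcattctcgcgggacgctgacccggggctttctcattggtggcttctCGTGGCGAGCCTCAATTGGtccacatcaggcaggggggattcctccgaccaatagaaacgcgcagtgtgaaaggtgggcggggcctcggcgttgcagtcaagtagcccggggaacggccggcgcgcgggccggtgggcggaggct

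Other stress lists moved less. Of 17 genes of the ATF4 and amino acid list 7 were higher and 0 lower, where 33.6% of all genes were higher. After quantile normalization 4 of the 17 were higher and 1 lower. Psat1 (serine synthesis) differed by 1.28 ± 0.09, Nupr1 by 1.25 ± 0.14 and asparagine synthetase (Asns) by 0.71 ± 0.09. In the heat shock list 6 of 10 were higher and 1 lower: Hsph1 was higher by 0.50 ± 0.09, and the co-chaperone Bag3 read 17.8, 18.7, 16 and 15.9 in the first experiment, against 23.1, 25.1, 27.4 and 24.5 in the second. The oxidative stress list had 4 higher and 4 lower of 16, with the aldo-keto reductase Akr1b8 at 0.91 ± 0.08, metallothionein Mt2A at 0.99 ± 0.17, haem oxygenase (Hmox1) at −0.31 ± 0.09 and Osgin1 at −0.66 ± 0.13. The heat shock and oxidative stress medians of 0.17 and 0.12 turned to −0.07 and −0.16 after quantile normalization, with 2 higher and 3 lower heat shock genes and 2 higher and 8 lower oxidative stress genes. Of 23 hypoxia and glycolysis genes 10 were higher and 7 lower, and 6 and 9 after quantile normalization: the prolyl hydroxylase of collagen P4ha2 differed by 1.06 ± 0.11 (0.25 at its other probe set), the glucose transporter Slc2a1 by 0.66 ± 0.09, lactate dehydrogenase (Ldha) by 0.48 ± 0.05 and the oxygen sensor Egln1 by −0.57 ± 0.10.

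The sterol synthesis list, which also holds the fatty acid genes Scd and Fasn, was higher for 13 of 17 genes and lower for 0. Its median was 0.66. After quantile normalization 10 were higher and 1 lower, with a median of 0.45. Fdps (farnesyl diphosphate synthase) read 114, 104, 118 and 128 in the first experiment, against 57.4, 45.0, 55.9 and 51.9 in the second, a difference of 1.14 ± 0.06 with no overlap. CVZ was the lowest array of both. Along the sterol pathway, the isomerase Idi1 differed by 1.01 ± 0.06 (0.60 at its other probe set) and squalene epoxidase (Sqle) by 0.77 ± 0.09. The demethylase Cyp51 differed by 0.99 ± 0.06 (0.36 at its other probe set) and Msmo1 by 0.80 ± 0.07. The fatty acid desaturase Scd differed by 0.97 ± 0.13. The transcription factor gene Srebf2, which drives the pathway, gave 0.04 ± 0.10, and fatty acid synthase (Fasn) 0.06 ± 0.09. Mitochondrial lists lay near the median of all genes and below the 0.25 of the fifth of probe sets with the highest signal. Of 26 respiratory chain genes 14 were higher and 0 lower, with a median of 0.17. After quantile normalization that median was −0.10, with 6 higher and 9 lower. Uqcrc2, a core subunit of complex III, was higher by 0.53 ± 0.05. In the fatty acid list 11 of 22 were higher and 2 lower. Among them were the transporter Cd36 (0.66 ± 0.07) and the thioesterase Acot2 (0.71 ± 0.10, with 0.71 and 0.07 at its 2 other probe sets). The lipid droplet protein Plin5 was lower (−0.61 ± 0.16, lost at −0.46 without the CVZ pair). After quantile normalization 2 of the 22 were higher and 8 lower, and the median of 0.18 was −0.07.

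Immediate early genes, which cells switch on within minutes of a stimulus, were higher for 13 of 16 genes and lower for 0, with a median of 0.81. Under the 3 other scalings 11 were higher and 0 or 1 lower. Egr1 read 12.4, 95.2, 52.9 and 24.3 in the first experiment, against 4.92, 35.6, 22.0 and 10.5 in the second. The treatments kept the same order in both, CVZ highest and vehicle lowest, and the difference was 1.30 ± 0.07. Fos differed by 1.14 ± 0.16, Junb by 1.06 ± 0.13 and Klf2 by 0.96 ± 0.13, while Nr4a1 gave −0.17 ± 0.13 and the phosphatase Dusp1 0.21 ± 0.12. The 2 other probe sets of Klf2 gave −0.21 and 0.33.

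Chemokines and adhesion molecules of the NF-kB list were higher for 10 of 15 genes and lower for 0, with a median of 0.83. Under the 3 other scalings 9 or 10 were higher and 1 lower. Ccl2 (which attracts monocytes) read 45.2, 6.64, 41.2 and 43.1 in the first experiment, against 16.3, 2.36, 7.12 and 10.3 in the second. The CVZ arrays were the lowest of both experiments, and within each treatment the first was higher, by 1.88 ± 0.13 in the fit. Ccl7 differed by 1.85 ± 0.20, the neutrophil chemokine Cxcl1 by 2.08 ± 0.21, the adhesion molecules Icam1 and Vcam1 by 1.33 ± 0.11 and 1.37 ± 0.12, and Ccl20 by 1.27 ± 0.13. Csf1 gave −0.03 ± 0.10, while its 3 other probe sets gave −1.67, 0.32 and −0.12, the first of them called lower.

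Interferon-linked genes did not move one way: 4 of 21 were higher and 4 lower. Irf7 (the factor that amplifies type I interferon) read 4.65, 6.25, 4.38 and 4.84 in the first experiment, against 11.3, 10.7, 12 and 13 in the second, a difference of −1.22 ± 0.11 with no overlap. Usp18, which removes ISG15 from proteins, differed by −1.01 ± 0.14 and Mx2 by −1.62 ± 0.28. Psmb9 (an immunoproteasome subunit), Gbp2 and Ifit2 were higher by 1.21 ± 0.18, 1.19 ± 0.24 and 0.98 ± 0.19, and Isg15 itself gave 0.06 ± 0.13. Of 10 measured MHC genes 1 was higher and 2 lower. B2m (the light chain of MHC class I) read 99.5, 116, 109 and 115 in the first experiment, against 58.3, 63.7, 58.9 and 64.1 in the second, and the class II gene RT1-DMb was lower at −0.45 ± 0.11.

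The receptors for the ligands did not differ by the test: Nr3c1 (glucocorticoid receptor) gave 0.14 with an interval from −0.05 to 0.33, and Nr3c2 (mineralocorticoid receptor) 0.24 with an interval from −0.11 to 0.60. Hsd11b1, the enzyme that regenerates active glucocorticoid inside cells, did. It read 11.1, 12.8, 15.2 and 11.7 in the first experiment, against 3.28, 3.55, 3.34 and 3.41 in the second, 3.66-fold higher in the first (1.87 ± 0.10, adjusted p = 6.7e-10). The second experiment was nearly constant across treatments, and the first was highest with COR. The co-chaperone Ptges3 was higher by 0.35 ± 0.06, not called under 2 of the 3 other scalings.

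Of 22 measured genes that glucocorticoids are known to regulate, 11 were higher and 4 lower (8 and 6 after quantile normalization). In this list 0 had arrays that did not overlap between the experiments, against 24.3% above and 7.42% below over all probe sets. The spread between vehicle and ligand arrays within an experiment enters this overlap, so the 0 is not read as a result about these genes. Lcn2 (lipocalin 2, an acute-phase iron carrier) read 11.1, 36.8, 45.0 and 18.0 in the first experiment, against 4.12, 12.1, 5.87 and 4.15 in the second. COR was the highest array of the first and CVZ that of the second, and the difference was 2.01 ± 0.16. Sgk1 (a kinase that regulates sodium channels) differed by 1.28 ± 0.11, Cebpd by 1.42 ± 0.15 and Errfi1 (an inhibitor of EGF receptor signalling) by 1.15 ± 0.14. Per1 was lower: it read 0.194, 3.26, 2.69 and 1.62 in the first experiment, against 0.857, 4.88, 5.50 and 3.83 in the second (−1.15 ± 0.18). Tsc22d3 gave 0.14 ± 0.07. In the circadian list 4 of 16 were higher and 3 lower (3 and 5 after quantile normalization), with Clock (0.45 ± 0.10), Bhlhe40 (0.64 ± 0.13) and Bhlhe41 (0.61 ± 0.11) higher and Tef (−0.72 ± 0.11) and Nfil3 (−0.64 ± 0.13) lower. The 2 other probe sets of Tef gave −0.34 and −0.00.

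The largest rise of all was in Reg3b, which encodes a secreted C-type lectin of acute-phase and injured tissue. It read 56.2, 72.3, 96.1 and 62.6 in the first experiment, against 3.52, 3.77, 3.01 and 3.78 in the second, 19.7-fold higher (4.30 ± 0.12, adjusted p = 5.8e-13). No treatment brought the second experiment near the first. Pla2g2a, a secreted phospholipase of inflammation, read 8.07, 8.60, 24.7 and 10.5, against 1.37, 1.21, 0.655 and 1.31, with the COR array of the first standing above its other 3. C1s, a protease of the complement cascade, read 16.5, 14.9, 25.5 and 15, against 3.65, 1.97, 2.91 and 2.85 (2.62 ± 0.13). Others of the 15 largest rises were the microfibril protein Mfap4 (2.56 ± 0.16), the chitinase-like protein Chi3l1 (2.51 ± 0.27), the chemokine Cxcl16 (2.12 ± 0.15), the proteoglycan Gpc3 (2.17 ± 0.21), Srpx2 (2.08 ± 0.17) and the neuronal pentraxin Nptx1 (2.77 ± 0.19). Agtr1a, a receptor for angiotensin II, read 2.86, 4.31, 7.83 and 4.09 in the first experiment, against 0.618, 1.13, 1.33 and 1.1 in the second. Id3, an inhibitor of differentiation factors, differed by 2.19 ± 0.09, Mnda by 2.52 ± 0.26 and Ppp2r2b, a regulatory subunit of protein phosphatase 2A, by 2.95 ± 0.37.

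The largest falls were smaller and mostly in dim probe sets. RT1-T24-3, an MHC class I gene, read 0.123, 1.16, 0.133 and 0.471 in the first experiment, against 1.74, 1.47, 1.89 and 1.67 in the second (−2.13 ± 0.40). Scaf1 (−1.96 ± 0.41), Mroh7 (−1.72 ± 0.34, and −1.08 without the COR pair), the phosphatase Dusp10 (−1.67 ± 0.39, and −0.96 without the CVZ pair), the dopamine receptor Drd4 (−1.43 ± 0.33) and the developmental factor Tbx2 (−1.43 ± 0.42, and −0.81 with the call lost without the vehicle pair) likewise had signals of at most 1.43 in the first experiment. Tmc6 read 1.76, 0.758, 1.00 and 1.79, against 3.13, 3.12, 3.34 and 4.19, and the palmitoyltransferase Zdhhc8 differed by −1.69 ± 0.27. Kcnip2 was the gene of this group with signal well above the median on all arrays.

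The RU486 arrays were outside the pairs and came from the second experiment, so they give the same genes in 4 more arrays of that experiment, each of a condition without a counterpart in the first. Reg3b read 3.72, 2.91, 4.61 and 4.09 there (RU486 with vehicle, CVZ, COR and ALD), far below the 56.2 to 96.1 of the first experiment. Postn read 19.2 to 21.8, Hbb 27.6 to 36.6, Ccna2 1.29 to 2.26, Hsp90b1 25.6 to 28.6, Fdps 42.7 to 55.9 and Hsd11b1 2.91 to 3.56. Kcnip2 read 44.3 to 45.4 and Irf7 11.1 to 12.8. All of these ranges lay on the second experiment's side of the first experiment's values. The 5S ribosomal control of the RU486 arrays read 5.05 to 6.26, again on that side.

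Sex-linked genes were checked as a mark of the mix of pups: 3 of 5 measured were called higher and 1 lower, and 2 and 2 under each of the 3 other scalings. Xist, expressed from the inactive X chromosome of females, read 85.9, 87.6, 86.9 and 87.6 in the first experiment, against 53.9, 63.8, 55.3 and 61.0 in the second (0.58 ± 0.06), and its 3 other probe sets gave 0.39 to 0.59. Uty, on the Y chromosome, read 7.78 to 8.17 and 8.41 to 8.64 in the first and second experiment, with no overlap, but its difference of −0.10 ± 0.09 was called only under the 3 other scalings. Of the X-linked members, Ddx3x (an RNA helicase) differed by 0.58 ± 0.06, with 0.32 at its other probe set. Kdm5c (a histone demethylase) differed by −0.51 ± 0.14, a call lost without the CVZ pair (−0.40). The 2 other probe sets of Kdm5c gave 0.02 and −0.18. Eif2s3 (a translation initiation factor subunit) differed by 0.24 ± 0.08 and lost its call under the 3 other scalings, without the CVZ pair (0.18) and without the COR pair. Xist and Uty had signals above the array median on all 8 arrays.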

How the data were processed

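The deposited table holds linear intensity per probe set, MAS5 signals per the submitters' processing notes. Tested on the file, each array had been divided by its own median. No version or genome build is given in the sources used here. The 57 control probe sets were set aside. Values became log2 after a pseudocount of 0.0696 (the 10th percentile), and probe sets above the 40th percentile of mean log2 over the 8 arrays were tested. limma 3.58.1 in R 4.3.3 (lmFit, eBayes with trend) fitted treatment and experiment, which pairs arrays by treatment as the labels do. Residual degrees of freedom were 3, with 13.8 added by the prior. p-values were Benjamini-Hochberg adjusted, and intervals are 95%. The number of arrays limits the precision. Probe sets took names from the platform annotation, updated to RefSeq symbols (20826 probe sets with 1 gene, 436 with several, 9780 with none). The procedure was tested on simulated data in which few probe sets were changed and the arrays had no scaling difference. That test does not bear on the scaling shift or on the large share of calls found here. Named genes were the 15 largest rises and falls with 1 sign in all pairs, up to 6 called and 2 other members of each list, and both receptors; not all are reported. The pairing, the 32 gene lists and these rules were chosen with earlier results of these data known. Alternatives changed pseudocount, filter, scaling, variance model, arrays fitted, pairing and pairs left out.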

Additional observations from a re-analysis of the deposited data

Results flagged for a closer look

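Pair differences of the 163 named genes and of the medians of 29 lists were screened. In 7 genes and 2 lists, 1 of the 4 pairs stood apart from the other 3 in its first minus second log2 difference by a gap test that flags about 1 in 20 groups of 4 by chance, or about 9.6 of these 192. The 9 found are no more than that. Pla2g2a had 5.10 in the COR pair, against 2.49 to 2.89 in the others. Zdhhc8 had −3.32 in the COR pair, with the other 3 between −1.25 and −1.07. Kcnip2 had −1.33 in the vehicle pair, a smaller fall than the −1.79 of the next pair. Drd4 had −2.19 in the ALD pair, Upk1b 0.72 in the CVZ pair, Creld2 0.34 in the vehicle pair and Osgin1 −0.99 in the CVZ pair. The median of the hypoxia and glycolysis list was −0.12 in the CVZ pair and 0.03 to 0.05 in the others, and that of the circadian clock list was −0.44 in the ALD pair and 0.10 to 0.16 in the others.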

How the results depend on the processing

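Of 163 genes named above 143 were called, and 102 of these were called in the same direction under every alternative, counting a gene that a stricter filter removed as not called. The experiment explained 42.3% of the sum of squares, against 49.7% with a pseudocount of 1, 25.5% with no filter on low values, 53.3% with a filter at the 60th percentile and 42.8% to 50.0% with 1 pair left out. The median correlation of pair differences of 0.545 was 0.525 and 0.595 with pseudocounts at the 1st and 25th percentile, 0.669 with a pseudocount of 1, 0.241 with no filter, 0.732 with the 60th percentile, 0.530 after quantile normalization, 0.533 after cyclic loess and 0.528 to 0.552 with 1 pair left out. Calls with the quantile, trimmed mean and cyclic loess scalings were 3350, 3114 and 3452 higher and 3491, 4340 and 3445 lower. Leaving out 1 pair gave 4561 to 5147 higher and 1447 to 1790 lower calls. With no replicate block, that is without the pairing by treatment, there were 4465 higher and 1290 lower calls, and 17 of the named genes lost their call. Myh6 turned to −0.16 with the trimmed mean and to −0.28 with cyclic loess, and Myl2 to −0.21 with cyclic loess, each called lower, while Eif2s3 was at −0.0087 after quantile normalization. Calls of Csrp3, Tcap, Kdr, Eif2s3, Ptges3, Cd68, Alas2 and Clock were lost under at least 1 scaling. Changes of at least 2-fold numbered 264 higher and 11 lower with a pseudocount of 1, 483 and 73 with the 25th percentile, 830 and 376 with no filter, 434 and 37 with the 60th percentile and 387 and 409 with the trimmed mean. Without a mean-variance trend there were 4113 higher and 1375 lower calls. Other alternatives kept these counts within 1.5 times. The cause of these changes was not tested. Detection calls were not used here, so for probe sets with signals far below the array median the log2 difference carries no check against background.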
